A study of Mus musculus with 14 samples.

Results

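The histone genes are described here on 14 expression arrays of peritoneal cells from female C57Bl/6 x C3H F1 mice aged 12 to 16 weeks. Members were the genes with a probe set that the platform annotation ties to 1 symbol, where that symbol is one of the histone names Hist1h, Hist2h, Hist3h, Hist4h, H2af or H3f3, or one of their updated forms. This gave 21 genes, measured by 29 probe sets, of 18193 genes with such a probe set. Each gene's probe set was chosen by its signal, as the one with the highest mean over all 14 arrays, and no difference between groups entered the rule. For 15 of the 21 genes that probe set passed the filter on low signals and was tested, among 12817 genes tested in all. The other 6, H1f4, H1f6, H1f8, H3c4, H3c11 and Macroh2a2, did not pass it. The members nearest the filter, a mean log2 signal of 5.64, were H1f7 just above it at 5.70 and H3c4 just below it at 5.63.

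The arrays fell into 5 groups. The naive group (n = 2) had received neither LPS nor SMD. In the other 4 groups mice had received LPS, the bacterial lipopolysaccharide that activates macrophages through Toll-like receptor 4, from Salmonella minnesota at 60 µg per mouse into a tail vein. The LPS group (n = 3) had LPS alone. Another 3 groups of 3 arrays had SMD, an agent whose name is given only as this abbreviation, at 100, 200 or 300 mg/kg, placed on the nares in 50 µl under halothane 30 minutes before LPS. Cells of the SMD groups were examined 2.0 hours after LPS. The sources used here give no time for the LPS group and do not say whether controls had halothane or a vehicle. Replicates of the LPS-challenged groups are labelled biological. The sources used here do not say whether an array held the cells of 1 mouse or of a pool, or whether the naive arrays came from separate mice, so p-values measure the spread between these samples.

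Histones are the proteins around which DNA is wound. The core histones H2A, H2B, H3 and H4 form the nucleosome, and linker histone H1 binds where DNA enters and leaves it. Most H1 and core histone genes lie in clusters and are transcribed mainly in S phase, and their messages end in a stem-loop in place of a poly(A) tail. Replacement variants such as H2A.Z, H2A.X, macroH2A and H3.3 are made outside S phase as well, largely from polyadenylated messages, and mark promoters, damaged DNA or silenced chromatin. The labelling kit used here primes from poly(A), so a signal for a clustered gene refers to whatever part of its transcripts was primed. Cluster genes of a family have nearly the same coding sequence. Signals for H2ac19, H2bc18, H2bc21, H2bc22, H3c4, H3c7 and H3c11 are therefore uncertain as to the single gene. Of the 21 probe sets, 1 ends in s_at and 3 end in x_at, the names the array's maker gives to probe sets that may read more than 1 transcript.

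Promoter sequence is shown for 3 linker histone genes, because H1f2, called H1.2 or H1c, had the largest log2 change with SMD of the 15 tested genes and shares a promoter layout with H1f4 and H1f6. The windows are the 250 bases before the transcription start from RefSeq, build GRCm38.p6. H1f2 is chr13:23738557-23738806 on the plus strand, H1f4 is chr13:23622559-23622808 on the minus strand, and H1f6 is chr13:23695561-23695810 on the plus strand. Capitals mark the H1 box AAACACA, the CCAAT box CCAAT and the TATA box TATAAA.
H1f2: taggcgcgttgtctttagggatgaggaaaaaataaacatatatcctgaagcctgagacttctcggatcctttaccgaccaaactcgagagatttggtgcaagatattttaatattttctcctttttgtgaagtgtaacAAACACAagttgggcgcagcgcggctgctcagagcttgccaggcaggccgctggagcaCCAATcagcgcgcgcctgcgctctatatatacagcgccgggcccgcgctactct
H1f4: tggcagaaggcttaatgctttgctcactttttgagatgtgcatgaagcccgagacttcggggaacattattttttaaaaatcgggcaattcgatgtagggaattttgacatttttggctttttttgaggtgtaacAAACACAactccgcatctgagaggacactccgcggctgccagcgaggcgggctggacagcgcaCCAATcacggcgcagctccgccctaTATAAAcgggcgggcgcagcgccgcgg
H1f6: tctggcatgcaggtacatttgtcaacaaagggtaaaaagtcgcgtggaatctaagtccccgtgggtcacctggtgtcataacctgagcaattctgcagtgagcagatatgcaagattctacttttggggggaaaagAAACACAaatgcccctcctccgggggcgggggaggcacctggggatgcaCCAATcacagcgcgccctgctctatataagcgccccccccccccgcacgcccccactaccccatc
In H1f2 the H1 box lay 112 to 106 bases before the start and the CCAAT box 54 to 50 bases before it. In H1f4 they lay at 115 to 109 and 52 to 48, and in H1f6 at 114 to 108 and 65 to 61. The motifs do not overlap each other. Searched on both strands, the H1 box was present in 6.25% of 32817 RefSeq promoter windows of this length, the CCAAT box in 33.8%, the TATA box in 12.4% and the octamer ATTTGCAT in 1.6%. A promoter was on hand for 17 of the 21 genes. H2ax, H2bc21, H3c7 and Macroh2a3 had none. H3f3a was the only other gene of the 17 with an H1 box, on the opposite strand, 181 to 175 bases before its start.

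Macrophage identity was checked with 18 markers, and all were on the array and tested. Adgre1, which encodes the F4/80 antigen, gave 15880 to 25130, and the lysozyme gene Lyz2 gave 37060 to 48520. Others of the 18 varied more over the arrays, such as Fcgr1 from 201.7 to 7793 and Gata6 from 474.5 to 2804. Macrophage markers summed to 184596 to 190355 in naive, 225447 to 238763 in LPS and 205964 to 225871 at 300 mg/kg. Neutrophil markers summed to 3285 to 4198 in naive, 21741 to 24214 in LPS and 37095 to 48874 at 300 mg/kg. B cell markers summed to 108833 to 113081, 82082 to 93880 and 90598 to 106777 in the same groups, and T and NK cell markers to 3121 to 3324, 2230 to 3547 and 3900 to 5667. Markers of cells other than macrophages were thus measured, and their sums differed between groups. In bulk RNA of this kind, fewer cells of a type and less RNA per cell cannot be told apart. The beta-actin control probe sets give a 3'/5' ratio per array, which is higher where RNA is broken or copied incompletely. It averaged 2.95 in naive, 3.32 ± 2.21 (SD, n = 3) in LPS and 6.21 ± 4.73, 9.81 ± 0.86 and 14 ± 6.24 at the 3 SMD doses. The same ratio of the Gapdh control was larger, at 6.776 to 8.865 in naive and 4.539 to 92.05 in LPS. It was 20.96 to 74.2, 66.99 to 114.5 and 32.19 to 178.7 at the 3 SMD doses. The median signal was 65.1 to 84.8 per array. Arrays of a group correlated at 0.925 to 0.954 in their log2 signals.

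With LPS, histone genes were called in both directions, at a share not far from that of all genes. Of the 15 tested, H3f3b and H2az1 rose and H1f2, H2bc21, H2az2 and H3f3a fell against naive, by limma at an adjusted p under 0.05. H3f3a passed the filter on low signals only through the naive arrays, where it was high: its mean log2 signal over the other groups was 5.57, under the filter's 5.64. A difference was therefore built into its being tested, and without it 5 of 14 genes were called. With it the count is 6 of 15 genes, or 40%, where 32.5% of all genes tested were called, 12.5% higher and 20% lower. The median log2 change of the 15 was 0.19, beside -0.22 for all genes, but -0.29 without naive replicate 1 and -0.20 without naive replicate 2. H1f2, H2az2 and H2bc21, which fell with LPS, were called higher at 300 mg/kg of SMD than with LPS alone. LPS arrays serve as one side of both comparisons, so the 2 sets of changes are not independent and are given side by side.

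**Figure D1:**
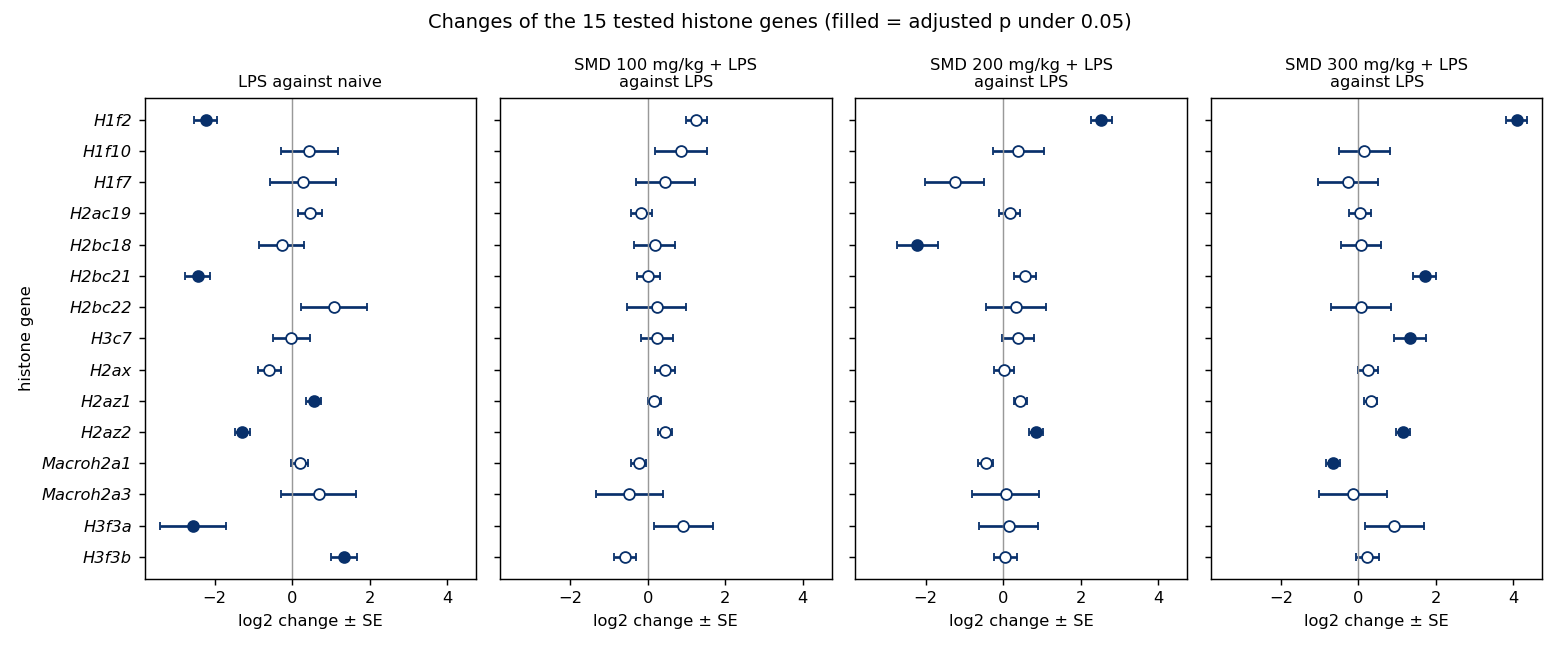
Log2 change with its standard error (x axis) for the 15 tested histone genes (y axis) in 4 comparisons, with filled points for an adjusted p under 0.05. LPS against naive has 6 filled points, SMD at 100 mg/kg against LPS has 0, 200 mg/kg has 3 and 300 mg/kg has 5, with H1f2 farthest to the right at the highest dose (4.09).

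H1f2 encodes a linker histone of somatic cells and lies in the histone cluster of chromosome 13 (GRCm38.p6, chr13:23738807-23739531). Its signals were 1959.1 and 1621.4 in naive and 395.3, 377.7 and 329.9 in LPS. With SMD they were 793.7, 1132.5 and 809.1 at 100 mg/kg, 2832.4, 3034.4 and 1254.9 at 200 mg/kg, and 6081.5, 8164.5 and 5539.5 at 300 mg/kg. LPS arrays were the lowest of all, the 4 LPS-challenged groups did not overlap, and the arrays at 300 mg/kg lay above every naive array. H1f2 fell 4.87-fold with LPS, a log2 change of -2.23 ± 0.30 (SE, adjusted p = 1.95e-05 by limma). Against LPS it was 2.48-fold at 100 mg/kg (1.26 ± 0.27, adjusted p = 0.246), which did not pass the threshold. At 200 mg/kg it rose 6.46-fold (2.54 ± 0.27, adjusted p = 6.07e-05), and at 300 mg/kg 17.9-fold (4.09 ± 0.27, adjusted p = 7.76e-08). The last had the smallest p of the 12817 genes tested and ranked 2 by size of increase. Array weights, or leaving out 100 mg/kg replicate 3, brought the lowest dose past the threshold (adjusted p = 0.0315 and 0.0311).

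Between doses H1f2 rose as well. The 300 mg/kg arrays were 7.23-fold above 100 mg/kg (log2 change 2.83 ± 0.27, adjusted p = 4.82e-06), and the slope over the 12 LPS-challenged arrays was 1.36 ± 0.09 per 100 mg/kg (adjusted p = 7.43e-08), again with the smallest p of all genes. The step from 200 to 300 mg/kg was 1.55 ± 0.27 (adjusted p = 0.00305). The step from 100 to 200 mg/kg was 1.28 ± 0.27 (adjusted p = 0.0296) and did not pass without 100 mg/kg replicate 1 or 3 (adjusted p = 0.112 and 0.0786) or without 200 mg/kg replicate 1 or 2 (0.145 and 0.149), with the actin covariate (0.0543) or without the intensity trend (0.13). Against naive the 300 mg/kg group was 3.68-fold higher (1.86 ± 0.30, adjusted p = 0.000272). Stepwise doses and 300 mg/kg against naive were chosen as comparisons after the values were seen.

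The other probe sets of H1f2 did not all follow. The second gave 683.7 and 510.6 in naive, 95.3 to 199.6 in LPS, 210.5 to 619.8 at 100 mg/kg, 713.7 to 1199.5 at 200 mg/kg and 2872.3 to 4950.9 at 300 mg/kg. Its log2 changes were -1.85 ± 0.39 with LPS (adjusted p = 0.00141), 2.55 ± 0.35 at 200 mg/kg (0.000361) and 4.42 ± 0.35 at 300 mg/kg (2.86e-07). The third had signals of 8.8 to 128.8 and passed in none of the comparisons. Its log2 change at 300 mg/kg was -0.60 ± 0.57 (adjusted p = 0.498).

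The rise of H1f2 went along with the beta-actin 3'/5' ratio across doses. LPS replicate 2 had a ratio of 5.86 and an H1f2 signal of 377.7, beside 395.3 and 329.9 on LPS arrays with ratios of 1.93 and 2.17. Among 300 mg/kg arrays, the one of ratio 6.99 had 6081.5, beside 8164.5 and 5539.5 at ratios of 16.2 and 18.9. Among 100 mg/kg arrays the highest signal, 1132.5, was on the array with the highest ratio, 11.6, beside 793.7 and 809.1 at 4.33 and 2.72. Among 200 mg/kg arrays the lowest, 1254.9, was at the highest ratio, 10.7, beside 2832.4 and 3034.4 at 9.66 and 9.03. With the 4 arrays of a ratio over 10 left out, which leaves 1 array at 300 mg/kg whose spread is assumed to equal that of the other groups, the log2 change at that dose was 3.99 (adjusted p = 2.71e-07). With the log ratio as a covariate it was 3.88 (adjusted p = 2.54e-05). Without the same 4 arrays the step from 200 to 300 mg/kg was 1.05 (adjusted p = 0.106). Of 14 B cell markers 6 fell with LPS and 5 rose at 300 mg/kg, where 20% of all genes fell and 17.7% rose. None was called at 100 mg/kg, and 3 were higher and 1 lower at 200 mg/kg. The summed B cell signal was 82082 to 93880 in LPS, 62553 to 83472 at 100 mg/kg and 75304 to 85330 at 200 mg/kg. Of 12 T and NK cell markers 3 fell and 1 rose with LPS, and 5 rose at 300 mg/kg. At 200 mg/kg 4 were higher and 1 lower, where 9.03% of all genes rose and 5.92% fell, and none was called at 100 mg/kg. Their summed signal was 2230 to 3547 in LPS. It was 2104 to 2978 at 100 mg/kg, 2821 to 3528 at 200 mg/kg and 3900 to 5667 at 300 mg/kg. The part of these cells in the result was not tested.

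**Figure D2:**
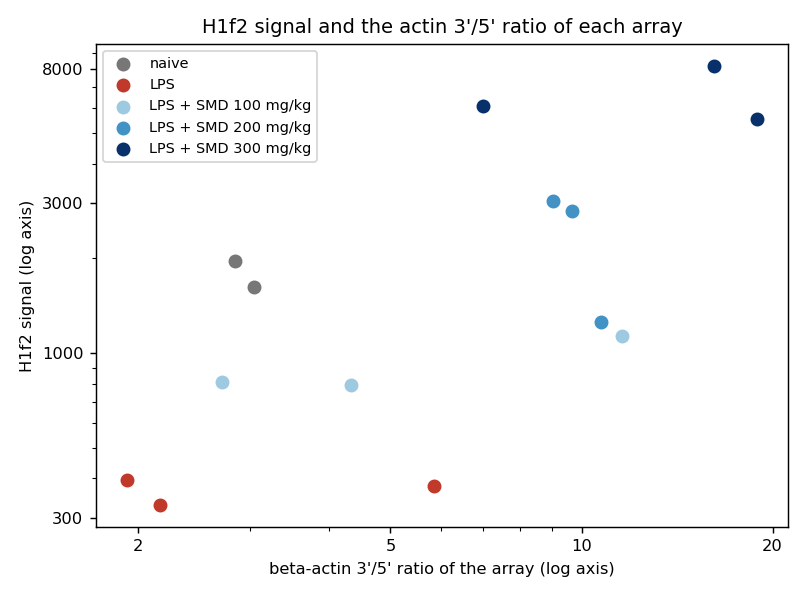
H1f2 signal (y axis, log scale) against the beta-actin 3'/5' ratio of the same array (x axis, log scale), with 1 point per array coloured by group. LPS arrays lie at signals of 329.9 to 395.3 and ratios of 1.93 to 5.86, and the 3 arrays at 300 mg/kg lie at 5539.5 to 8164.5 and ratios of 6.99 to 18.9.

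The other linker histone genes gave low signals. H1f10, encoding H1.10, read 15.8 to 206.6 with all groups overlapping and passed in no comparison. H1f7, a testis H1, read 3.9 to 109.2 and also passed in none. H1f7 came through the filter on low signals only with both the LPS and the 100 mg/kg arrays included. Its mean log2 signal was 5.62 without the LPS group and 5.50 without the 100 mg/kg group, under the filter's 5.64. Its being tested thus depended on groups that were compared, so its lack of a call is a description. It was kept in all counts of tested histone genes. H1f4, encoding H1.4 of somatic cells, read 2.7 to 90.9, the testis gene H1f6 2.9 to 129.2 and the oocyte gene H1f8 2.3 to 54.6, and these 3 were not tested. The change of H1f2 was thus the only one called among the 3 tested H1 genes, and whether it differed from theirs was not tested.

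The 2 genes of H2A.Z, a variant found at promoters and enhancers, moved apart. H2az2, encoding H2A.Z.2 (chr11:6427226-6444511), read 3502.7 and 3439 in naive and 1115.6, 1521.4 and 1646.7 in LPS. With SMD it read 2169.1, 1827.1 and 1823.1 at 100 mg/kg, 2703.8, 3046.2 and 2077.7 at 200 mg/kg, and 3375.9, 3244.9 and 2849 at 300 mg/kg. All 9 SMD arrays lay above the LPS arrays and below the naive ones. H2az2 fell 2.43-fold with LPS (log2 change -1.29 ± 0.20, adjusted p = 9.68e-05) and rose 1.83-fold at 200 mg/kg (0.86 ± 0.18, adjusted p = 0.00519) and 2.21-fold at 300 mg/kg (1.15 ± 0.18, adjusted p = 0.000119). The change at 100 mg/kg was 0.45 ± 0.18 (adjusted p = 0.494). The change from naive to 300 mg/kg was -0.14 ± 0.20 (adjusted p = 0.674). Its second probe set read 8.6 to 50.7 in LPS and 205.5 to 351 at 300 mg/kg, and its log2 changes were -2.38 ± 0.46 with LPS (adjusted p = 0.000702), 1.77 ± 0.41 at 200 mg/kg (0.00965) and 2.67 ± 0.41 at 300 mg/kg (9.75e-05). With the actin ratio as a covariate the 200 mg/kg change of the first was 0.89 (adjusted p = 0.0638).

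H2az1, encoding H2A.Z.1 (chr3:137864487-137866922), read 19604.5 and 20066.4 in naive and 24248.9, 35218.6 and 28512.3 in LPS. It read 32279.7, 34581.9 and 42375.2 at 300 mg/kg, and the LPS and SMD groups overlapped at 100 and 300 mg/kg. It rose 1.48-fold with LPS (log2 change 0.55 ± 0.19, adjusted p = 0.0401), and its second probe set 1.59-fold (0.67 ± 0.15, adjusted p = 0.00242). The first call was lost without LPS replicate 2 (0.41, adjusted p = 0.149) or 3 (0.56, 0.076), without either naive array (0.181 and 0.151), without 200 mg/kg replicate 1 or 2 (0.0517 and 0.0501) and under quantile normalization (0.22, adjusted p = 0.253). Against LPS no SMD dose passed (adjusted p = 0.778, 0.0894 and 0.187). Under quantile normalization 200 and 300 mg/kg did, with log2 changes of 0.49 and 0.39 (adjusted p = 0.011 and 0.018). Against naive the 300 mg/kg group was 1.84-fold higher (0.87 ± 0.19, adjusted p = 0.00357), which was not called with the actin covariate (0.30, adjusted p = 0.385) or without the arrays of high ratio (0.70, 0.109).

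H3.3 is the H3 variant laid down at active genes, and its shared probe sets are given under the results flagged for a closer look. H3f3b, 1 of its 2 genes (chr11:116021961-116026039), read 229.2 and 121 in naive, 497.6, 428.1 and 417.9 in LPS, and 670.7, 490.1 and 439.1 at 300 mg/kg. No LPS or 300 mg/kg array overlapped naive. It rose 2.56-fold with LPS (log2 change 1.34 ± 0.33, adjusted p = 0.00469), and the call was lost without naive replicate 2 (0.92, adjusted p = 0.131). Against LPS it did not pass at any SMD dose, with log2 changes of -0.58, 0.06 and 0.23. Against naive it was 3.05-fold higher at 300 mg/kg (1.56 ± 0.33, adjusted p = 0.00253), which did not hold without naive replicate 2 (1.14, adjusted p = 0.0793). Neutrophil markers also rose with LPS, 7 of 11 with none lower, beside 12.5% of all genes higher. Their part in the rise of H3f3b and H2az1 was not tested. H3f3a, its other gene, has 1 probe set of its own with low signals, 195.3 and 172.4 in naive and 12.8, 3.6 and 51 in LPS. As it passed the filter only through naive, its log2 change with LPS of -2.57 ± 0.85 (adjusted p = 0.0313) is a description. It was not called without LPS replicate 1 (-2.46, adjusted p = 0.071) or 2 (-2.18, 0.0944) or without naive replicate 1 (-2.49, 0.165) or 2 (-2.65, 0.134).

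MacroH2A carries a large domain behind its histone fold and marks silenced chromatin. Macroh2a1 (chr13:56073622-56135626) read 1486.4 and 1418.5 in naive, 1606.1, 1479.4 and 1936.8 in LPS, and 1194, 1006.3 and 958.4 at 300 mg/kg. All 300 mg/kg arrays lay below all LPS and naive arrays. Macroh2a1 fell 1.59-fold from LPS at 300 mg/kg (log2 change -0.66 ± 0.19, adjusted p = 0.0136), with a slope of -0.22 ± 0.06 per 100 mg/kg (adjusted p = 0.0114). The slope was -0.06 with the actin covariate (adjusted p = 0.718) and -0.18 without the arrays of high ratio (0.148). With the actin ratio as a covariate the 300 mg/kg change was -0.18 (adjusted p = 0.705), with the arrays of high ratio left out it was -0.47 (0.266), and it was not called without LPS replicate 3 (-0.55, 0.069) or 300 mg/kg replicate 3 (-0.59, 0.0524). Macroh2a3 read 2.5 to 129.9 and passed in no comparison, and Macroh2a2, at 2.8 to 106.2, was not tested.

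H2ax encodes H2A.X, which is phosphorylated at DNA breaks. It read 724.4 and 646.8 in naive and 542.6, 349.1 and 476.1 in LPS, groups that did not overlap, with a log2 change of -0.59 ± 0.30 (adjusted p = 0.157). At 300 mg/kg it read 583, 616.2 and 429.1, overlapping LPS (0.25 ± 0.26, adjusted p = 0.545). With the actin ratio as a covariate this was 1.04 (adjusted p = 0.0344).

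**Figure D3:**
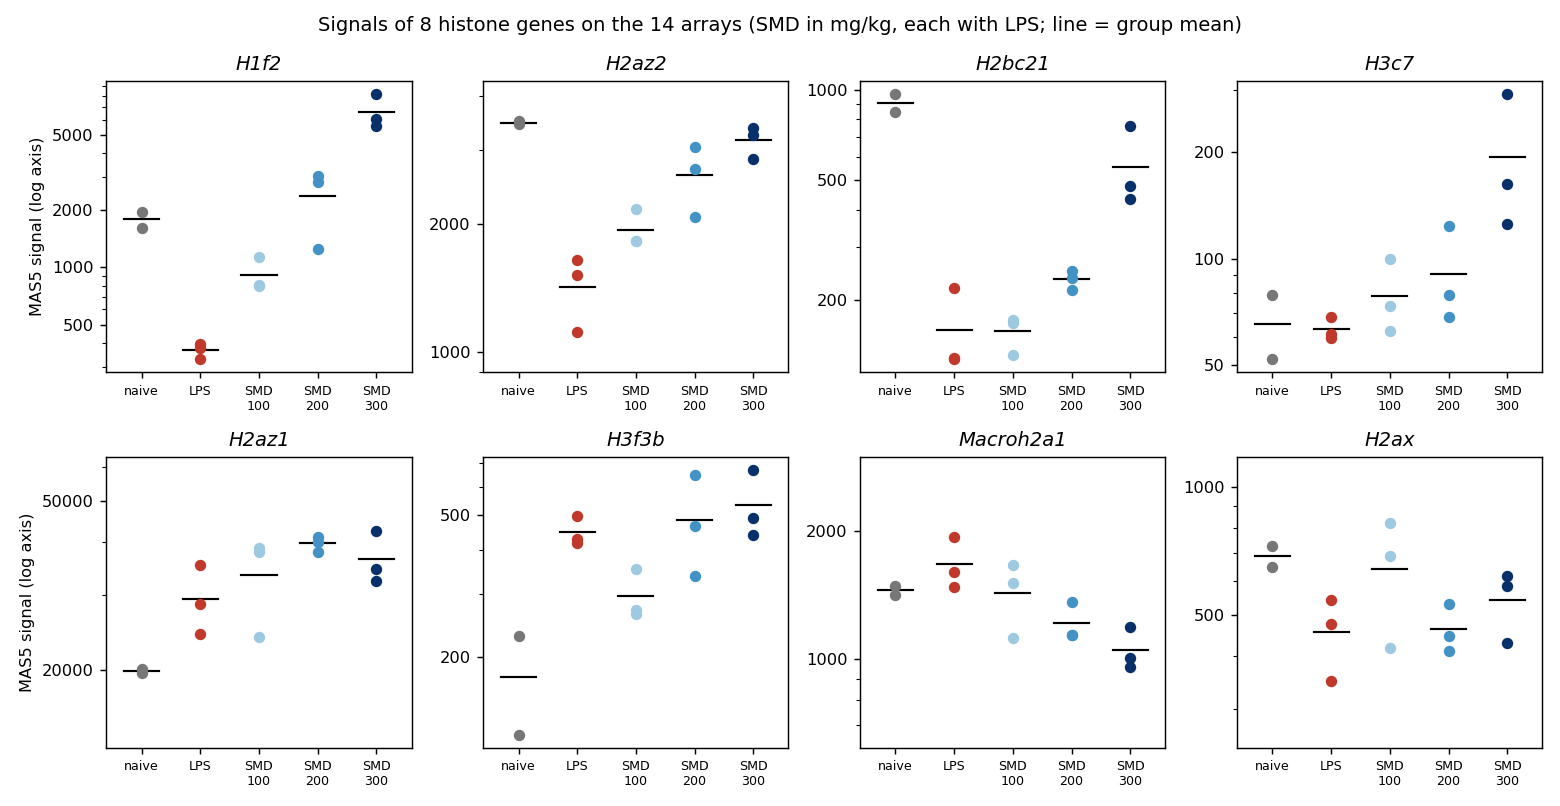
MAS5 signals (y axis, log scale) of 8 histone genes on the 14 arrays by group (x axis), with 1 point per array and a line at the group mean. H1f2, H2az2 and H2bc21 are lowest in LPS or at 100 mg/kg and higher at 300 mg/kg, H2az1 and H3f3b are lowest in naive, and Macroh2a1 is lowest at 300 mg/kg.

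The 5 tested core genes of the replication-dependent clusters had no common pattern among their calls. H2bc18, H2bc22 and H3c7 gave low signals, at most 151.1, 225.3 and 291.6, which limits what a lack of pattern can show. Probe sets shared by several cluster genes are given separately, under the results flagged for a closer look. H2bc21, an H2B gene of the chromosome 3 cluster (chr3:96221072-96223738), read 846.4 and 968.4 in naive and 127.9, 219.6 and 127.4 in LPS. With SMD it read 168.1, 172.1 and 131.1 at 100 mg/kg, 250, 216.2 and 236.5 at 200 mg/kg, and 432.2, 756.9 and 480.3 at 300 mg/kg. Arrays at 300 mg/kg lay above all other LPS-challenged arrays and below naive. H2bc21 fell 5.73-fold with LPS (log2 change -2.44 ± 0.32, adjusted p = 1.51e-05) and rose 3.51-fold from LPS at 300 mg/kg (1.71 ± 0.29, adjusted p = 0.000209). At 100 and 200 mg/kg the changes were 0.02 and 0.56 (adjusted p = 0.985 and 0.219). From 100 to 300 mg/kg it rose 3.54-fold (1.69 ± 0.29, adjusted p = 0.000444). The second probe set changed by -3.07 ± 0.64 with LPS (adjusted p = 0.00135) and by 2.02 ± 0.57 at 300 mg/kg (0.0128). From 100 to 300 mg/kg it changed by 0.31 ± 0.57 (adjusted p = 0.786), and its slope was not called (adjusted p = 0.115), while that of the first was 0.57 ± 0.11 per 100 mg/kg (0.000749). The first slope was not called with the actin covariate (0.42, adjusted p = 0.13) or without the arrays of high ratio (0.41, 0.0646). With the actin ratio as a covariate the 300 mg/kg change of the first was 1.11 (adjusted p = 0.0753).

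H3c7, an H3 gene of the chromosome 13 cluster (chr13:23544052-23544954), read 59.8 to 68.2 in LPS and 162.7, 291.6 and 125.7 at 300 mg/kg, without overlap. It rose 3.06-fold (log2 change 1.33 ± 0.42, adjusted p = 0.0239) with a slope of 0.41 ± 0.13 per 100 mg/kg (adjusted p = 0.0245). The rise was not called without LPS replicate 1 (1.37, adjusted p = 0.051) or 3 (1.31, 0.0585), without 300 mg/kg replicate 2 (1.01, 0.144), with the actin covariate (1.29, 0.245) or without the arrays of high ratio (1.18, 0.274). The slope was not called without 300 mg/kg replicate 1 (0.40, adjusted p = 0.0567) or 2 (0.30, 0.135), with the actin covariate (0.45, 0.214), without the arrays of high ratio (0.33, 0.24) or with no filter (0.0775), and the 300 mg/kg change with no filter had an adjusted p of 0.0749. H2bc18, another H2B gene, read 89.7, 47.4 and 111.2 in LPS and 69.9, 139.6 and 55.6 at 300 mg/kg, but 2.9, 4.5 and 6.2 at 200 mg/kg. It fell at 200 mg/kg against LPS (-2.21 ± 0.52, adjusted p = 0.0101), a call lost without LPS replicate 1 (-2.13, 0.0515) or 3 (-2.0, 0.0566) and with the actin covariate (-1.67, 0.297). All 3 of its signals at that dose were below 33.9, the signal at the filter on low values. At 300 mg/kg its log2 change from LPS was 0.06 ± 0.52.

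H2ac19, an H2A gene, read 407.4 to 936.8 and passed in no comparison, with log2 changes of 0.45 with LPS and 0.04 at 300 mg/kg. Under quantile normalization its change with LPS was 0.83 (adjusted p = 0.0479). H2bc22 read 3.5 to 225.3 with wide spread in naive and at 300 mg/kg and passed in none. H3c4 and H3c11, both H3 genes, read 7.2 to 85.1 and 0.5 to 46.1 and were not tested.

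Over the doses, SMD at 100 mg/kg against LPS gave 0 of 15 histone genes called by limma and 0.0% of all genes, with 2 histone genes, H1f2 and H2az2, at an unadjusted p under 0.05. The median log2 change of the 15 was 0.23, beside 0.01 for all genes. At 200 mg/kg 3 of 15 were called, 2 higher and 1 lower, beside 14.9% of all genes (9.03% higher and 5.92% lower), with a median of 0.17 beside 0.02. At 300 mg/kg 5 of 15 were called, 4 higher and 1 lower, beside 31.7% of all genes (17.7% and 14%), with a median of 0.23 beside 0.05. The share called at 300 mg/kg was close to that of all genes. From 100 to 300 mg/kg H1f2, H2bc21 and H2az2 rose and none fell, beside 21.5% of all genes (12.1% higher and 9.36% lower), with a median of 0.15 beside 0.04. That median was -0.06 without 300 mg/kg replicate 2 and -0.36 without the arrays of high ratio, and 0.70 with the lowest 60% of probe sets left out. The dose slope was called for 5, H1f2, H2bc21, H3c7 and H2az2 higher and Macroh2a1 lower, beside 31.2% of all genes (17.4% and 13.8%), with a median of 0.05 beside 0.01. Among the added comparisons 1.33% of all genes were called from 100 to 200 mg/kg (1.03% higher, 0.296% lower), 6.7% from 200 to 300 mg/kg (2.72% higher) and 20.7% from naive to 300 mg/kg (9.42% higher). The histone genes called there were 2 (H1f2 higher, H2bc18 lower), 3 (H1f2, H2bc21 and H2bc18 higher) and 3 (H1f2, H3f3b and H2az1 higher). The fall of H2bc18 from 100 to 200 mg/kg (-2.39 ± 0.52, adjusted p = 0.031) was lost in 11 of 24 alternatives, with adjusted p = 0.0545 to 0.141 as 100 mg/kg replicate 1 or 3, any 200 mg/kg array or either naive array was left out. Its rise from 200 to 300 mg/kg (2.27 ± 0.52, adjusted p = 0.0165) was lost without 300 mg/kg replicate 2 (1.94, 0.124) and without the arrays of high ratio (2.13, 0.343). The rise of H2bc21 from 200 to 300 mg/kg (1.15 ± 0.29, adjusted p = 0.0258) was lost in 7 of 25, among them quantile normalization (0.0515), each 200 mg/kg array left out (0.0635, 0.0767 and 0.0831) and 300 mg/kg replicate 2 left out (0.181).

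Of 29 tested genes that act in DNA copying or S phase, 12 fell with LPS, 1 rose and 16 were not called, with a median log2 change of -0.94. Of all genes 20% fell and 12.5% rose. Pola1, the catalytic subunit of DNA polymerase alpha, fell by 2.18 ± 0.35 (adjusted p = 0.000117), Rrm2, a subunit of ribonucleotide reductase, by 2.13 ± 0.40 (0.000553) and the maintenance methyltransferase gene Dnmt1 by 1.47 ± 0.28 (0.000574). Rfc3, of the clamp loader, rose by 2.10 ± 0.45 (adjusted p = 0.00164). At 300 mg/kg against LPS 6 of the 29 rose and 1 fell, with a median of 0.42, where 17.7% of all genes rose and 14% fell. Cdt1, a licensing factor, rose by 0.95 ± 0.16 (adjusted p = 0.000228), Pola1 by 1.5 ± 0.31 (0.00135) and Dnmt1 by 1.14 ± 0.25 (0.00197), while Rfc3 fell by 3.04 ± 0.40 (2.18e-05). At 200 mg/kg 3 of the 29 rose and 1 fell, where 9.03% of all genes rose and 5.92% fell.

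Of 19 mitosis genes 11 fell with LPS, none rose and 8 were not called, with a median of -1.34, beside 20% of all genes lower. Top2a, a topoisomerase of dividing cells, fell by 2.32 ± 0.37 (adjusted p = 0.00011), and Cenpa, the centromeric H3 variant that the symbol rule does not cover, by 1.73 ± 0.34 (0.000906). Of the 19, 3 rose and none fell at 300 mg/kg, where 17.7% of all genes rose and 14% fell. The share that rose was thus close to that of all genes. Cenpa rose by 1.67 ± 0.31 (adjusted p = 0.000485), Top2a by 1.12 ± 0.33 (0.0165) and Nusap1, a spindle protein, by 0.77 ± 0.27 (0.0443). The summed mitosis signal stayed below naive at 300 mg/kg, at 4737 to 5747 beside 8027 to 8808 in naive and 4089 to 4828 in LPS.

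Of 27 histone chaperones and exchange factors, 3 rose and 6 fell with LPS, a share close to the 32.5% called among all genes. At 300 mg/kg against LPS 6 rose and 7 fell, beside 31.7% of all genes called, and the medians were -0.19 and 0.04. Daxx, which deposits H3.3 together with Atrx, rose with LPS by 3.20 ± 0.39 (adjusted p = 5.94e-06) and fell at 300 mg/kg by 2.94 ± 0.35 (6.9e-06). Atrx fell with LPS by 1.96 ± 0.29 (adjusted p = 5.91e-05). Anp32a, an acidic nuclear phosphoprotein, fell by 1.61 ± 0.22 with LPS (2.44e-05) and rose by 1.28 ± 0.20 at 300 mg/kg (9.7e-05). Ruvbl1, an ATPase of the complexes that exchange H2A.Z, rose by 1.07 ± 0.20 with LPS (0.000472) and fell by 1.49 ± 0.18 at 300 mg/kg (7.33e-06). The H2A-H2B chaperone gene Nap1l1 rose by 1.02 ± 0.13 at 300 mg/kg (adjusted p = 1.68e-05). At 200 mg/kg 3 of the 27 rose and 5 fell, where 9.03% of all genes rose and 5.92% fell.

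Few factors of histone gene transcription and of stem-loop processing were called. With LPS 0 of 16 rose and 2 fell, where 12.5% of all genes rose and 20% fell. At 300 mg/kg 1 rose and 2 fell, where 17.7% of all genes rose and 14% fell. The medians were -0.02 and -0.30. Cpsf3, the nuclease that cuts histone and other messages, fell by 0.84 ± 0.21 with LPS (adjusted p = 0.00591) and rose by 0.78 ± 0.19 at 300 mg/kg (0.00458). Cpsf2, its partner, fell by 1.2 ± 0.26 (0.00202) and Lsm10, of the U7 particle, by 0.90 ± 0.26 (0.0139) at 300 mg/kg. Slbp, the stem-loop binding protein, had log2 changes of 0.12 and 0.33 and was called in neither comparison. At 200 mg/kg 2 of 16 fell and none rose, where 5.92% of all genes fell and 9.03% rose.

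**Figure D4:**
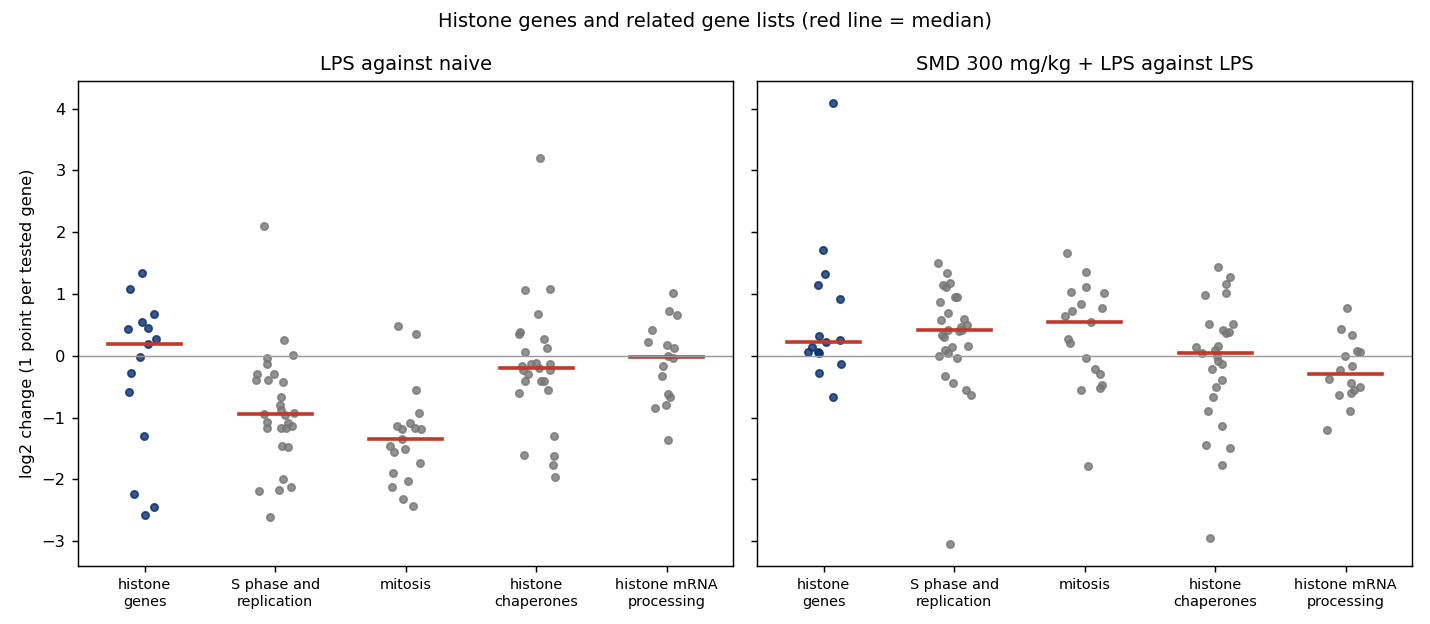
Log2 change (y axis) of each tested gene, 1 point per gene with a line at the median, for the histone genes and 4 related lists (x axis), with LPS against naive on the left and SMD at 300 mg/kg against LPS on the right. The medians for S phase and mitosis genes are -0.94 and -1.34 on the left and 0.42 and 0.55 on the right, beside 0.19 and 0.23 for the histone genes.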

How the data were processed

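Total RNA of peritoneal cells was hybridised to 14 arrays after one-cycle labelling, per the labels' protocols. The deposited values are linear signal intensity, which the authors computed with MAS5 (version not stated), per the submitters' processing notes. On every array the mean was 500 once 2% of values had been trimmed from either end, so a change is relative to the other transcripts of that array. Of 45101 probe sets, 64 controls were left out. Of the other 45037, the platform annotation gives 34945 a single symbol, 932 several and 9160 none. Symbols were updated through Entrez identifiers (34741 updated, 204 kept as given), and coordinates are those of RefSeq, GRCm38.p6.

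Log2 values (signal + 16, computed from the deposited intensity) were filtered: the dimmest 40% of probe sets by mean log2 value (under 5.64, a signal of about 33.9) were dropped, leaving 27022. The pseudocount understates changes of dim genes. The model, 1 mean per group over all 14 arrays, was fitted with an intensity trend in limma 3.58.1 (R 4.3.3). Tests were two-sided, and p-values were adjusted by Benjamini-Hochberg over the 27022 probe sets. Calls were made at an adjusted p under 0.05. The dose trend is a slope over the 12 LPS-challenged arrays, with LPS as dose 0. The script was tested on simulated data. The number of arrays limits the precision.

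The members and the lists were chosen with earlier results of these data known. Values are named for replacement variants, for called members, for the members with the smallest p where few were called, and for up to 4 genes per list with the smallest p. The remaining members are named so that all are accounted for, and Slbp, Adgre1 and Lyz2 were named after their values were seen. The lists covered S phase, mitosis, histone chaperones, histone message processing, and markers of macrophages, B cells, T and NK cells, neutrophils, mast cells, eosinophils, erythroid cells, platelets, and mesothelial cells and fibroblasts. Alternatives were other pseudocounts, filters and scalings, array weights, no intensity trend, a replicate block, the actin 3'/5' ratio as covariate and each array left out in turn. Leaving out the 4 arrays with a ratio over 10 and 3 more contrasts were added after seeing the data.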

Additional observations from a re-analysis of the deposited data

Results flagged for a closer look

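Histone probe sets that the annotation ties to several genes were left out of the comparisons above, since none can be assigned to a single gene. There were 28, of which 21 passed the filter on low signals. Against LPS at 300 mg/kg 6 of them rose and 1 fell, beside 27.5% of all probe sets called (13.8% higher and 13.7% lower). A probe set shared by 3 H2B genes read 1981.8 and 2151.3 in naive, 881.8, 868 and 866.2 in LPS, and 3328.7, 4683 and 3338.8 at 300 mg/kg, a log2 change of 2.08 from LPS (adjusted p = 1.65e-06 by limma). A probe set shared by 8 H3 genes rose by 2.11 on the log2 scale (adjusted p = 7.22e-05), from 86.1, 132.9 and 85.7 to 359.4, 670.6 and 464.7. Another, shared by 11 genes that are nearly all H2B, rose by 1.30 (adjusted p = 9.37e-05), from 591.5 to 664 in LPS to 1391.6 to 1812.6 at 300 mg/kg. These 3 had fallen with LPS, by 1.23, 1.10 and 1.12 (adjusted p = 0.000548, 0.0256 and 0.000901). Another 4 of the 21 rose with LPS, 2 of H3.3 type by 1.16 and 1.12 (adjusted p = 6.51e-06 and 1.23e-05) and 2 of H2A.Z type by 0.57 and 0.93 (0.00432 and 7.85e-05). With LPS 27.1% of all probe sets were called, 10.3% higher and 16.8% lower. A probe set shared by 2 H2A genes rose by 2.10 (adjusted p = 0.0214), from 2.1 to 72.8 to 131.3 to 227.9. One shared by 13 H4 genes rose by 1.00 (adjusted p = 0.0442), from 73 to 115.1 to 191.7 to 243.4, and one shared by 6 genes or pseudogenes of H3.3 type rose by 0.51 (adjusted p = 0.00314), from 13930.5 to 16804.9 to 20276.7 to 23248.3. That H3.3 probe set read 16217.7 and 15315.4 in naive, so its naive and LPS arrays overlapped. The 1 that fell is shared by 10 H2A genes, with a log2 change of -2.20 (adjusted p = 0.0277), from 265.7 to 1111.7 to 15.9 to 290.6.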

How the results depend on the processing

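No alternative turned the direction of a called histone gene. The median over the histone genes did change sign in some alternatives, with LPS and from 100 to 300 mg/kg. H1f2 stayed past the threshold in all 25 alternatives, 1 of them with a single 300 mg/kg array, with LPS, at 200 and 300 mg/kg, from 100 to 300 mg/kg and for the slope, and so did H2az2 with LPS, at 300 mg/kg and for the slope, and H2bc21 with LPS. With the actin 3'/5' ratio as covariate the count of called histone genes was 1 at 200 mg/kg, 3 at 300 mg/kg and 2 for the slope, against 3, 5 and 5. With the 4 arrays of a ratio over 10 left out, which leaves 1 array at 300 mg/kg with its spread taken from the other groups, it was 3 at 300 mg/kg, 1 from 100 to 300 mg/kg and 2 for the slope, against 5, 3 and 5. In the latter H2bc21 and H2az2 were not called from 100 to 300 mg/kg (1.45 and 0.76, adjusted p = 0.07 and 0.122). With array weights 1 gene was called at 100 mg/kg, against 0. With single arrays left out the counts were 3 to 6 with LPS (3 without naive replicate 2), 0 to 1 at 100 mg/kg (1 without 100 mg/kg replicate 3), 2 to 4 at 200 mg/kg, 3 to 5 at 300 mg/kg (3 without LPS replicate 3), 3 in each case from 100 to 300 mg/kg and 4 to 6 for the slope. The cause of these shifts was not tested. Deviations from group means correlated with a median of 0.016 over 26 pairs of same-numbered arrays, 4 of them over 0.1. Over 52 pairs of differently numbered arrays the median was -0.01, with 2 over 0.1. Deviations within groups of 2 or 3 arrays depend on each other, so this cannot decide whether equal numbers pair the arrays. With a replicate block the counts were 6, 0, 3, 5, 3 and 5, as without it, and H1f2 changed by -2.07 with LPS and 4.09 at 300 mg/kg. The median log2 change of all probe sets with LPS was -0.24 as deposited, -0.06 after quantile normalization and -0.11 after median scaling, and 37.9, 48.2 and 47.8% of calls were higher. At 200 mg/kg median scaling gave 61.1% higher against 51.1%. The median over the 15 histone genes ranged from -0.29 to 0.33 with LPS.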

Other observations

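Counts of called markers per cell type follow. Of all genes, 12.5% rose and 20% fell with LPS, and 17.7% rose and 14% fell at 300 mg/kg against LPS. Of 18 macrophage markers, 4 rose and 6 fell with LPS, and 4 rose and 4 fell at 300 mg/kg against LPS. Of 11 tested neutrophil markers 7 rose with LPS and 3 rose and 1 fell at 300 mg/kg. S100a8, a calcium-binding protein of neutrophils, rose by 3.63 ± 0.22 with LPS (adjusted p = 9.27e-10 by limma) and by 1.05 ± 0.20 at 300 mg/kg (0.000532). Csf3r was the neutrophil marker that fell at 300 mg/kg, with a log2 change of -1.36 ± 0.28 (adjusted p = 0.00124). The median of the neutrophil markers at that dose was 0.18. Of the T and NK cell markers, Thy1 fell by 2.11 ± 0.37 with LPS (adjusted p = 0.000324) and rose by 2.36 ± 0.34 at 300 mg/kg (4.29e-05). Of the B cell markers, the complement receptor gene Cr2 fell by 2.06 ± 0.32 with LPS (adjusted p = 8.02e-05) and rose by 1.77 ± 0.28 at 300 mg/kg (0.000139). Of 10 mast cell markers 3 rose and 1 fell with LPS, and 2 rose and 2 fell at 300 mg/kg. Of 3 tested eosinophil markers 1 fell with LPS and 1 rose at 300 mg/kg, of 3 erythroid markers 1 rose with LPS, and of 6 platelet markers 2 rose with LPS. None of the 9 tested markers of mesothelial cells and fibroblasts was called with LPS or at 300 mg/kg.

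Outside the rule, 11 probe sets carry a single histone symbol, and 5 of them, of H2aj and H2aw, both encoding H2A proteins, were tested. None of the 5 was called in any planned comparison by limma. The log2 changes of H2aj at 300 mg/kg against LPS were 0.24, -0.92 and -1.12 over its 3 tested probe sets (adjusted p = 0.471, 0.353 and 0.135).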
